A study of Homo sapiens with 9 samples.

Results

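The genes described here are 10 transcriptional outputs of the RAS-RAF-MEK-ERK cascade, namely the phosphatase genes DUSP1, DUSP4, DUSP5 and DUSP6, the Sprouty genes SPRY1, SPRY2 and SPRY4, and the PEA3-type ETS factors ETV1, ETV4 and ETV5. They were taken by symbol from the deposited count table, which holds 25382 entries once repeats are left out, and all 10 were among the 14731 genes with enough reads to be tested. They were measured in 501mel, an established human melanoma line with a BRAF mutation, grown in DMEM with fetal bovine serum. Cells were lipofected with DsiRNA 13.6 against TBX3, DsiRNA 13.8 against TBX3 or the control DsiRNA NC1, and total RNA was taken 24 h later. A DsiRNA is a short synthetic duplex that Dicer cuts into a silencing guide. Each of the 3 groups holds 3 libraries, labelled as biological replicates of a single cell line, so n = 3 throughout. All cells, the controls included, were transfected, and no untreated cells were analysed here. TBX3 is a T-box transcription factor, and the comparison of knockdown with control asks which transcripts differ once its mRNA is lowered.

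Activated ERK phosphorylates ETS factors and other regulators, and the genes they induce include brakes on the cascade itself. DUSP proteins remove phosphate from MAP kinases, Sprouty proteins dampen signalling between receptor tyrosine kinases and RAF, and the PEA3 factors carry the signal to further target genes. In melanomas with a BRAF mutation several of these transcripts are widely used as a readout of MEK-ERK activity, since they fall within hours of MEK inhibition. In mammals the repressor Capicua holds down ETV1, ETV4, ETV5 and other members until ERK relieves it.

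Library totals were 41592157 to 47531852 reads with 13.6, 47137721 to 52272147 with 13.8 and 38105026 to 45386350 in the controls. TBX3 itself stood at 39.4 to 46.4 CPM with 13.6 and 33.7 to 36.2 CPM with 13.8, against 83.8 to 88.6 CPM in the controls, with log2 fold changes of −1.02 ± 0.07 and −1.27 ± 0.07. CPM is a gene's reads as a share of its library total, after scaling by TMM. "Higher", "rose", "lower" and "fell" refer to a Benjamini-Hochberg adjusted p under 0.05 over all tested genes by edgeR's quasi-likelihood test, two-sided. Every adjusted p below comes from that test unless other tools are named. Log2 fold changes are given as estimate ± SE, followed where needed by their 95% interval. In bulk RNA, fewer cells that express a gene and less of its RNA per cell cannot be told apart. The melanocytic markers PMEL, MLANA, TYR, TYRP1, DCT, SOX10, MITF and S100B were all expressed, KRT5 had no read in any library and KRT14 had 1 read in 1 library. KRT10, from the same keratinocyte list, averaged 43.1 CPM in the controls, and CD68, from the leukocyte list, 74.2 CPM.

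With DsiRNA 13.6, DUSP4, SPRY4, ETV1 and ETV5 rose, DUSP1 and DUSP6 fell, and DUSP5, SPRY1, SPRY2 and ETV4 did not pass the test. That is 4 members higher, against 24.9% of all tested genes, and 2 lower, against 25.0%. With DsiRNA 13.8, ETV1 rose and DUSP1, DUSP4, DUSP5, SPRY1, SPRY4 and ETV5 fell, while DUSP6, SPRY2 and ETV4 did not pass. That is 1 member higher, against 27.5% of all tested genes, and 6 lower, against 27.9%. Between the DsiRNAs 8 of 10 members differed, against 61.1% of all tested genes. DUSP4, DUSP5, SPRY1, SPRY4 and ETV5 were higher with 13.6 than with 13.8 (30.9% of all tested genes were), and DUSP1, DUSP6 and ETV1 were lower (30.2% were). Counted over either direction, 6 members were called with 13.6 and 7 with 13.8, against 49.9% and 55.5% of all tested genes. With 13.6 the libraries lay above all controls for 4 members (27.9% of all tested genes) and below them for 2 (28.1%), which is 6 without overlap (56.0%). With 13.8 they lay above for 1 (29.5%) and below for 6 (29.6%), which is 7 without overlap (59.1%). Between the DsiRNAs, 13.6 lay above for 5 members (34.8%) and below for 4 (34.0%), which is 9 without overlap (68.8%). The members' median log2 fold change was 0.00 with 13.6 and −0.33 with 13.8, and that of all tested genes −0.01 with 13.6 and 0.01 with 13.8. Counted in either direction the members stood near the share of all tested genes. The excess of falls with 13.8 was not tested for the group. Both comparisons with control use the same 3 control libraries.

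With 13.8 markers of fibroblasts moved too. All 6 of 6 tested, among COL1A1, COL1A2, COL3A1, DCN, LUM, PDGFRB, THY1 and POSTN, rose with 13.8 and 2, THY1 and POSTN, with 13.6. Their summed level over the 8 genes was 6.75 to 8.52 CPM with 13.6 and 24.0 to 25.1 CPM with 13.8, against 5.11 to 6.55 CPM in the controls. PTPRC, which marks leukocytes, had 9 to 19 reads with 13.6, 14 to 17 with 13.8 and 4 to 10 in the controls. The melanocytic markers summed to 13840 to 15000 CPM with 13.6 and 17390 to 18190 CPM with 13.8, against 13360 to 15380 CPM in the controls. Of these 8 genes 3 rose and 3 fell with 13.6, and 4 rose and 3 fell with 13.8. TYRP1, a melanin enzyme, averaged 2695 CPM with 13.6 and 7831 CPM with 13.8, against 3604 CPM in the controls. MITF, the lineage factor, stood at −0.04 ± 0.11 with 13.6 and fell with 13.8 (−0.97 ± 0.11). SOX10 (−0.35 ± 0.07) and MLANA (−0.27 ± 0.07) also fell with 13.8, and PMEL, at −0.20 ± 0.08, did not pass. TYRP1, S100B (1.592 ± 0.104), TYR (0.838 ± 0.065) and DCT (0.635 ± 0.098) rose with 13.8. With 13.6 TYR, SOX10 and S100B rose, TYRP1, DCT and MLANA fell, and MITF and PMEL did not pass. Of the other marker lists, 1 of 4 keratinocyte genes was tested (KRT10, not called), CD68 rose with 13.6 and LYZ with 13.8 among 3 tested leukocyte genes, and VWF fell with 13.6 among 2 tested endothelial genes. The part of these shifts in the members' values was not tested.

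**Figure D1:**
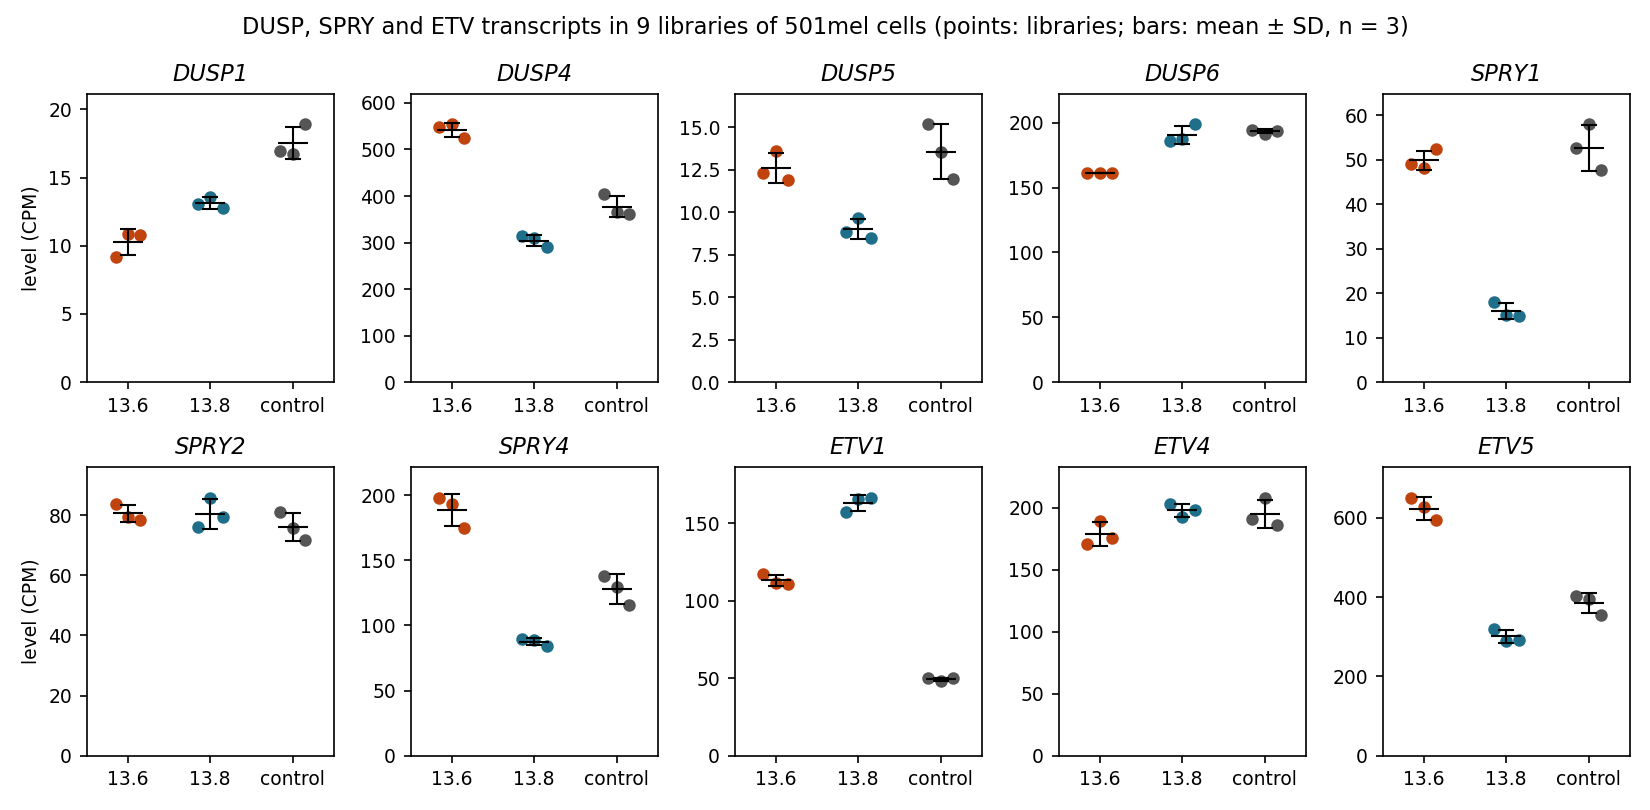
Level of each member in CPM on the y axis, by group on the x axis, with 1 point per library and bars for mean ± SD (n = 3). ETV1 is highest with 13.8 and lowest in the controls, SPRY1 is low in the 3 libraries with 13.8, and DUSP4, SPRY4 and ETV5 are highest with 13.6 and lowest with 13.8.

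DUSP6 encodes a cytoplasmic phosphatase that acts on ERK with high preference. It gave 160.9, 161.3 and 161.4 CPM with 13.6, 186, 187 and 199 CPM with 13.8, and 194.5, 191.5 and 193.5 CPM in the controls. All 3 libraries with 13.6 lay below the 6 others, while those with 13.8 overlapped the controls. DUSP6 fell by 0.26 ± 0.05 on the log2 scale with 13.6 (adjusted p = 0.00102 by edgeR). With 13.8 its log2 fold change was −0.02 ± 0.05, with an interval of −0.13 to 0.09 (adjusted p = 0.774 by edgeR). An antisense transcript, AC024909.2 in GENCODE 29, shares 1789 exonic bases with DUSP6. Reads from it and from DUSP6 cannot be told apart unless the counting used strand, which the sources used here do not state.

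DUSP4 encodes a nuclear phosphatase of ERK and other MAP kinases and had the most reads of the 4 phosphatase genes. Its level was 548, 554 and 524 CPM with 13.6, 314, 309 and 289.9 CPM with 13.8, and 404, 366 and 362 CPM in the controls. The 3 groups did not overlap, with 13.6 above and 13.8 below the controls. DUSP4 rose by 0.52 ± 0.06 with 13.6 (adjusted p = 1.7e-05 by edgeR) and fell by 0.31 ± 0.06 on the log2 scale with 13.8 (adjusted p = 0.0010 by edgeR). Its level with 13.6 exceeded that with 13.8 by 0.83 ± 0.06 (1.78-fold, adjusted p = 1.46e-07 by edgeR).

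DUSP5, a nuclear phosphatase specific for ERK, was a low transcript. It stood at 12.3, 13.58 and 11.9 CPM with 13.6, 8.86, 9.68 and 8.497 CPM with 13.8, and 15.2, 13.57 and 11.9 CPM in the controls. The libraries with 13.8 lay below all others, and those with 13.6 overlapped the controls. DUSP5 fell by 0.59 ± 0.11 on the log2 scale with 13.8 (adjusted p = 0.000352 by edgeR). With 13.6 it was at −0.11 ± 0.10, interval −0.33 to 0.12 (adjusted p = 0.421 by edgeR).

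DUSP1, an immediate-early phosphatase that acts mainly on the stress kinases p38 and JNK and is also induced through cyclic AMP and CREB, fell with both reagents. It gave 9.19, 10.9 and 10.8 CPM with 13.6, 13.0, 13.59 and 12.8 CPM with 13.8, and 17.0, 16.7 and 18.9 CPM in the controls. None of the 3 groups overlapped another. The fall was 0.77 ± 0.09 on the log2 scale with 13.6 (adjusted p = 1.46e-05 by edgeR) and 0.42 ± 0.09 with 13.8 (adjusted p = 0.00153 by edgeR), and the level with 13.6 was lower than that with 13.8 by a log2 difference of −0.35 ± 0.09 (adjusted p = 0.00478 by edgeR). Its promoter is shown because the full cyclic AMP response element stands in it. In the sequence from RefSeq (GRCh38.p14, chr5:172771146-172771445, minus strand, 250 bases before to 50 after the annotated start, 5′ to 3′), capitals mark the element TGACGTCA and its core TGACG on either strand. The full element holds the core on both strands.
DUSP1 promoter: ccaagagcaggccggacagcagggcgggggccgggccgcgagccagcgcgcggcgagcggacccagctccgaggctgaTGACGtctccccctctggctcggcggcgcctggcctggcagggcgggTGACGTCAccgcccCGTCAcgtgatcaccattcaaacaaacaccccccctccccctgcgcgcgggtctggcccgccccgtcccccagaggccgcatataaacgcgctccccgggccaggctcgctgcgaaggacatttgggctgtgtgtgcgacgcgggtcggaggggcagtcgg
The element begins 125 bases before the start. It occurs in 1.85% of 35116 RefSeq promoters of this length, and the core TGACG in 24.6%, searched on both strands. Of the 10 members 6 have a promoter in the table. The full element was found in DUSP1 and the core in DUSP1, SPRY2, SPRY4 and ETV1.

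Summed per exon length, the 4 phosphatase transcripts came to 117.8 to 122.5 CPM per kilobase (kb) of exon with 13.6, 93.3 to 94.2 with 13.8 and 106 to 113 in the controls. The groups did not overlap. DUSP4 made up 62.1% ± 0.73 of that sum with 13.6 and 44.7% ± 1.6 with 13.8, against 47.9% ± 1.3 in the controls (SD, n = 3). The share of DUSP6 was 29.5% ± 0.60 with 13.6 and 44.7% ± 1.9 with 13.8, against 39.2% ± 1.1 in the controls. These sums and shares were not tested.

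SPRY1 encodes a Sprouty protein that dampens signalling from receptor tyrosine kinases. It gave 49.0, 48.1 and 52.3 CPM with 13.6, 18.02, 14.99 and 14.8 CPM with 13.8, and 52.5, 57.9 and 47.6 CPM in the controls. The 3 libraries with 13.8 lay far below the other 6, and those with 13.6 overlapped the controls. SPRY1 fell 3.31-fold with 13.8 (log2 fold change −1.73 ± 0.09, adjusted p = 7.78e-09 by edgeR), the largest fall among the 10 members. With 13.6 it stood at −0.08 ± 0.09, interval −0.27 to 0.11 (adjusted p = 0.479 by edgeR). The difference between the DsiRNAs was 1.64 ± 0.09 (interval 1.44 to 1.85, adjusted p = 1.04e-08 by edgeR).

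SPRY4, another Sprouty gene and a common readout of ERK activity, moved in opposite directions with the 2 DsiRNAs. Its level was 198, 193 and 175 CPM with 13.6, 89.4, 88.7 and 84.3 CPM with 13.8, and 138, 129.6 and 116 CPM in the controls. The 3 groups were separate, in the same order as for DUSP4. SPRY4 rose by 0.56 ± 0.07 with 13.6 (adjusted p = 3.07e-05 by edgeR) and fell by 0.55 ± 0.07 on the log2 scale with 13.8 (adjusted p = 3.02e-05 by edgeR). The level with 13.6 was 2.15-fold that with 13.8 (1.11 ± 0.07, adjusted p = 4.01e-08 by edgeR).

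SPRY2, the remaining Sprouty member, gave 83.8, 79.4 and 78.3 CPM with 13.6, 76.0, 85.7 and 79.4 CPM with 13.8, and 81.0, 75.7 and 71.8 CPM in the controls. All 3 groups overlapped. Its log2 fold change was 0.08 ± 0.07 with each DsiRNA (adjusted p = 0.342 with 13.6 and adjusted p = 0.345 with 13.8 by edgeR), with upper bounds of 0.23 and 0.22. Between the DsiRNAs it was 0.00 ± 0.07, interval −0.14 to 0.15. Per exon length SPRY2 made up 32.8% ± 0.39 of the 3 Sprouty transcripts with 13.6 and 53.6% ± 2.2 with 13.8, against 36.8% ± 1.1 in the controls (SD, n = 3). SPRY1 made up 20.4% ± 1.5 with 13.6 and 10.7% ± 1.3 with 13.8, against 25.6% ± 1.6 in the controls. The summed Sprouty level was 78.2 to 83.6 CPM per kb with 13.6, 48.0 to 51.0 with 13.8 and 62.6 to 71.8 in the controls.

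The promoters of SPRY1 and SPRY4 are shown side by side because SPRY4 passed the test with 13.6 and its paralog SPRY1 did not, a difference between genes that was not tested. Both come from RefSeq (GRCh38.p14), SPRY1 from chr4:123396545-123396844 on the plus strand and SPRY4 from chr5:142324198-142324497 on the minus strand, 5′ to 3′, with the core TGACG in capitals.
SPRY1 promoter: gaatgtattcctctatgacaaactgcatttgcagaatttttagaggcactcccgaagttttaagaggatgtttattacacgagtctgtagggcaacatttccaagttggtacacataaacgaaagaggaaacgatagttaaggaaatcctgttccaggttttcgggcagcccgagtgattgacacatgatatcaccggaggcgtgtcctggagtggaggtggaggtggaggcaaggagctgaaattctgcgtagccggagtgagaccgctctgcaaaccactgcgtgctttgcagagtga
SPRY4 promoter: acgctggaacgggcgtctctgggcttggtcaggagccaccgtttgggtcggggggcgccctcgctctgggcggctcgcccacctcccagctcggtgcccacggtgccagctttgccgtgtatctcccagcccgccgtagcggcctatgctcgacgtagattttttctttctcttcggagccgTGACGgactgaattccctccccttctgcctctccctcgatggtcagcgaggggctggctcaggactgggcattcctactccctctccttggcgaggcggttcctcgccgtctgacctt
The core begins 68 bases before the start of SPRY4. No match was found in the SPRY1 window. SPRY2, whose promoter also holds the core, did not pass with either DsiRNA, and with 13.8 both SPRY1 and SPRY4 fell. A part of the core in these changes was not tested. The promoter of SPRY1 has a GC content of 47.7% and that of SPRY4 of 65.0%. On either strand, none of the 6 member promoters held the ETS word CCGGAAGT, the Capicua words TGAATGAA and TGAATGGA, the T-box words AGGTGTGA and AGGTGT, or the AP-1 word TGANTCA. They occur in 4.14%, 1.65%, 1.03%, 0.98%, 11.4% and 7.71% of the 35116 promoters, in that order. AGGTGTGA contains AGGTGT.

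**Figure D2:**
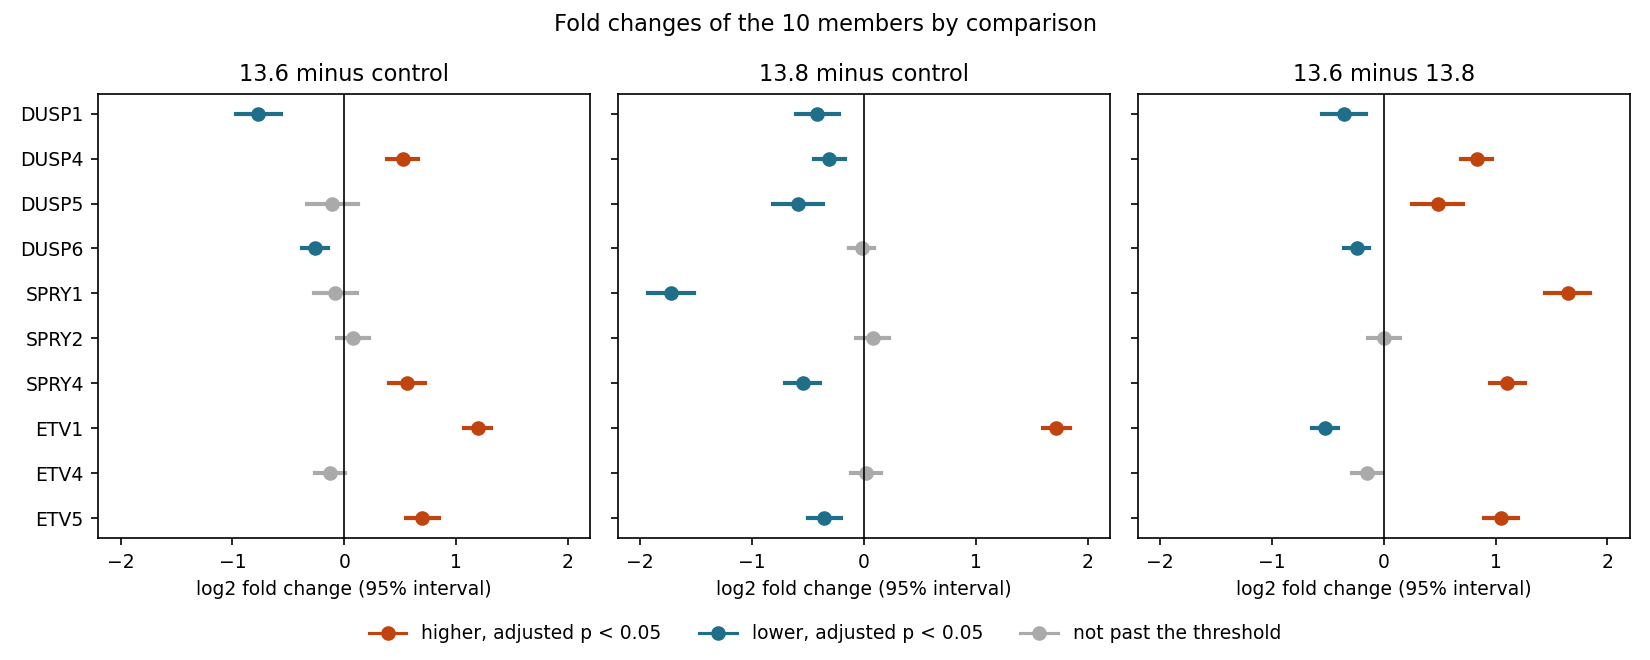
Log2 fold change of each member on the x axis (point, with its 95% interval as a line) in the 3 comparisons, by gene on the y axis. ETV1 is higher with both DsiRNAs, SPRY1 is lower with 13.8 by 1.73, and the right panel shows DUSP4, DUSP5, SPRY1, SPRY4 and ETV5 higher with 13.6 than with 13.8.

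ETV1, a PEA3 factor that acts downstream of KIT in gastrointestinal stromal tumours and is amplified in some melanomas, rose with both DsiRNAs. It gave 117, 112 and 111 CPM with 13.6, 157, 165.5 and 166.5 CPM with 13.8, and 49.9, 48.3 and 50.2 CPM in the controls. All 6 knockdown libraries lay above the 3 controls, and the 13.8 libraries lay above the 13.6 libraries. ETV1 rose 2.29-fold with 13.6 (1.19 ± 0.06, adjusted p = 5.85e-09 by edgeR) and 3.30-fold with 13.8 (1.72 ± 0.06, adjusted p = 2.54e-10 by edgeR). Its log2 difference between 13.6 and 13.8 was −0.53 ± 0.06 (adjusted p = 2.7e-06 by edgeR). TBX3 was higher with 13.6 than with 13.8 by 0.26 ± 0.07 (adjusted p = 0.00699 by edgeR). A relation of ETV1, or of any other member, to the level of TBX3 was not tested. The ETV1 promoter (RefSeq, GRCh38.p14, chr7:13990653-13990952, minus strand, 5′ to 3′, core TGACG in capitals) is shown because ETV1 was the member with the largest rise, though the gene has several annotated starts.
ETV1 promoter: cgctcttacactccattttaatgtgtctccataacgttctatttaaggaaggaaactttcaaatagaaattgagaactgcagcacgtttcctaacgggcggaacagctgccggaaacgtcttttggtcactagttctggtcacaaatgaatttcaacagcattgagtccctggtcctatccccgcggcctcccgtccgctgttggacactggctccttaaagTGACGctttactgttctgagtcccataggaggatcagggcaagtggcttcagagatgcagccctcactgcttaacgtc
The core begins 28 bases before this start.

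ETV5 had the most reads of the 3 PEA3 genes in every group. Its level was 651, 627 and 594 CPM with 13.6, 320.3, 289.9 and 293 CPM with 13.8, and 402, 396 and 356 CPM in the controls. The groups were separate and ordered as for DUSP4 and SPRY4. ETV5 rose by 0.70 ± 0.07 with 13.6 (adjusted p = 2.72e-06 by edgeR) and fell by 0.35 ± 0.07 on the log2 scale with 13.8 (adjusted p = 0.000705 by edgeR). The level with 13.6 was 2.07-fold that with 13.8 (1.05 ± 0.07, adjusted p = 3.86e-08 by edgeR).

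ETV4, the remaining PEA3 factor, gave 171, 189 and 175 CPM with 13.6, 203, 193 and 198 CPM with 13.8, and 191, 208 and 186 CPM in the controls. Both knockdown groups overlapped the controls, while the 13.6 libraries lay below the 13.8 libraries. Its log2 fold change was −0.13 ± 0.06 with 13.6 (adjusted p = 0.108 by edgeR) and 0.02 ± 0.06 with 13.8 (adjusted p = 0.801 by edgeR). The difference between the DsiRNAs, −0.15 ± 0.06, missed the threshold (adjusted p = 0.0550 by edgeR), and it passed in 7 of 17 alternative settings, with adjusted p from 0.0181 to 0.197 over all of them by edgeR, DESeq2 or limma-voom. Per exon length ETV1 made up 6.60% ± 0.18 of the 3 PEA3 transcripts with 13.6 and 13.1% ± 0.79 with 13.8, against 3.90% ± 0.28 in the controls (SD, n = 3). ETV5 made up 64.8% ± 1.4 with 13.6 and 43.1% ± 1.1 with 13.8, against 53.9% ± 1.3 in the controls. The summed PEA3 level was 214.1 to 226.9 CPM per kb with 13.6, 157.1 to 166.7 with 13.8 and 155 to 172 in the controls. With 13.8 this sum overlapped that of the controls, and it was not tested.

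**Figure D3:**
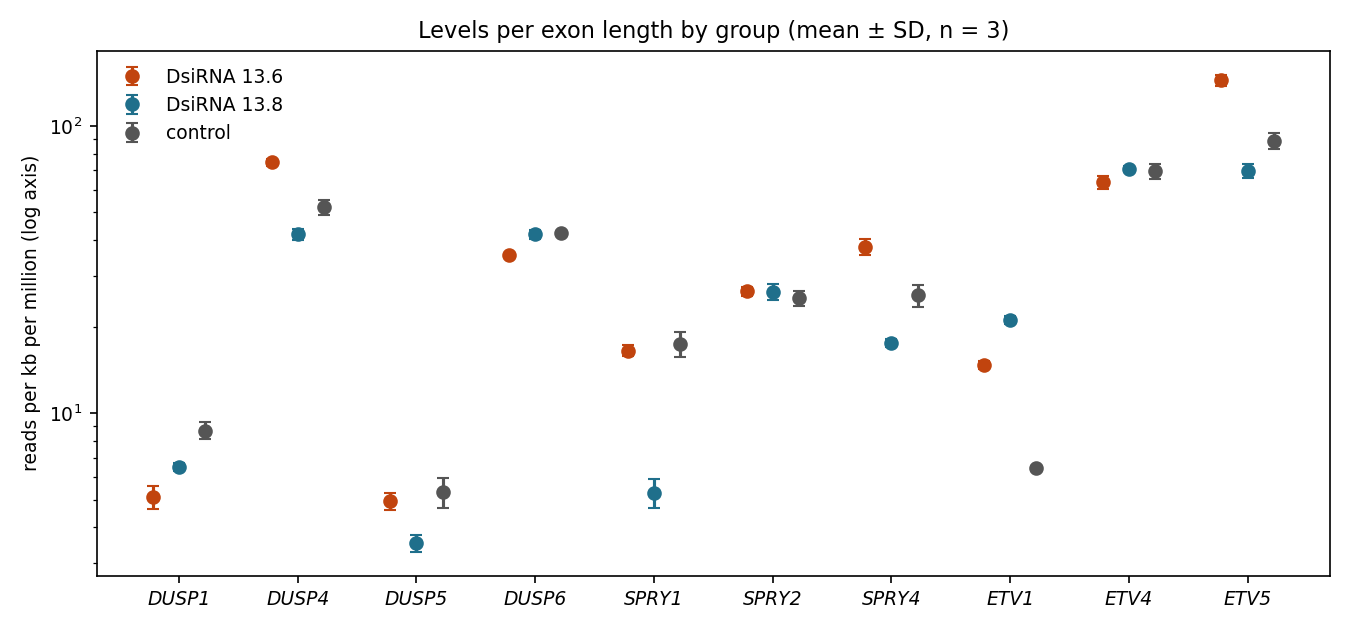
Level of each member in CPM per kb of exon on a log axis, by gene on the x axis and by group in colour (mean ± SD, n = 3). ETV5, at 144 with 13.6, is the highest point, and DUSP5, at 3.52 with 13.8, the lowest.

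Per exon length, the order of levels in the controls was ETV5 (88.8 CPM per kb), ETV4 (69.6), DUSP4 (52), DUSP6 (42.5), SPRY4 (25.7), SPRY2 (25.1), SPRY1 (17.4), DUSP1 (8.69), ETV1 (6.42) and DUSP5 (5.30). SPRY4 and SPRY2 overlapped in that order, and every other pair of neighbours was separate. With 13.6 the order was ETV5, DUSP4, ETV4, SPRY4, DUSP6, SPRY2, SPRY1, ETV1, DUSP1 and DUSP5, where SPRY4 overlapped DUSP6 and DUSP1 overlapped DUSP5. With 13.8 it was ETV4, ETV5, DUSP4, DUSP6, SPRY2, ETV1, SPRY4, DUSP1, SPRY1 and DUSP5, where ETV4 overlapped ETV5 and DUSP4 overlapped DUSP6. ETV1 stood at 14.7 with 13.6 and 21.2 with 13.8, against 6.42 in the controls, and SPRY1 at 16.5 with 13.6 and 5.28 with 13.8, against 17.4 in the controls. Lengths are exon unions of GENCODE 29, and the transcripts used in these cells may be shorter.

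**Figure D4:**
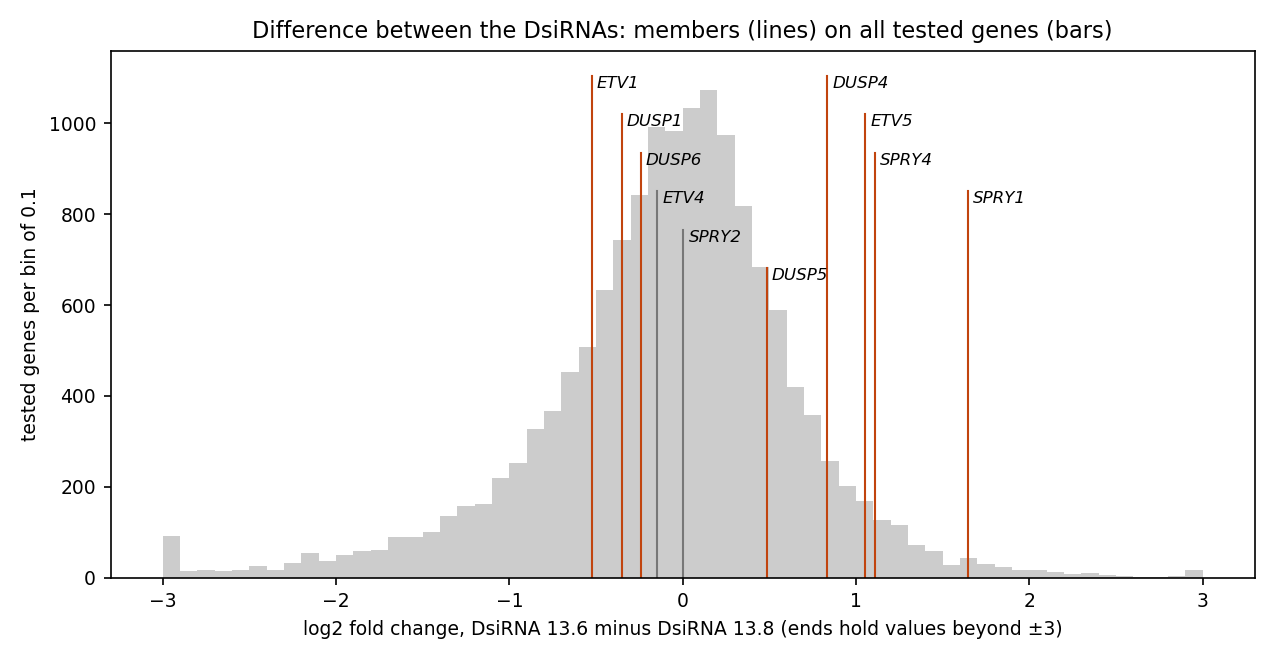
Number of tested genes (grey bars, y axis) by log2 fold change of 13.6 against 13.8 (x axis, bins of 0.1), with each member as a line whose height has no meaning. SPRY1 at 1.64, SPRY4 at 1.11, ETV5 at 1.05 and DUSP4 at 0.83 stand on the right, and the members at and below 0 lie between −0.53 and 0.00.

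The 7-base words GCTCTGT and AACTGTC, and a further word, GATTAAC, were looked for in 3′ untranslated regions because an earlier search of these data had picked them for their relation to the fold changes. The medians here, and the members' fold changes set beside the words, are therefore not independent of that search. Among 12470 tested genes with such a region in GENCODE 29, the 2592 holding GCTCTGT had a median log2 fold change of −0.09 with 13.6, against 0.02 in the others. With 13.8 the holders of GCTCTGT had a median of −0.012, against 0.007 in the others. The 1374 holding AACTGTC had a median of −0.20 with 13.8, against 0.02 in the others. With 13.6 the holders of AACTGTC had a median of 0.079, against −0.005 in the others. The 729 holding GATTAAC had medians of 0.27 with 13.6 and 0.18 with 13.8, against −0.01 in the others in each comparison. Of the 10 members, DUSP6 and ETV4 hold GCTCTGT (20.8% of the genes searched do) and SPRY1 and ETV5 hold AACTGTC (11% do), and ETV5 also holds GATTAAC (5.85% do). The regions searched ran from 672 bases in DUSP1 to 4638 in ETV1 among the members. A longer region has more places for a word, and these shares and medians were not adjusted for length. The sites, with the word in capitals and up to 11 bases on each side, are shown because they allow the members to be set beside those words.
DUSP6 GCTCTGT site: gcagtaggtttGCTCTGTacccatgtgta
DUSP6 GCTCTGT site: gagagatttcaGCTCTGTatttgtggtat
ETV4 GCTCTGT site: cagttcttggtGCTCTGTgttcccagagg
SPRY1 AACTGTC site: ttaattaatgaAACTGTC
ETV5 AACTGTC site: ccatagtctcaAACTGTCccccttatgac
ETV5 GATTAAC site: aggagaagggcGATTAACacttttgacag
Of the holders of GCTCTGT, DUSP6 fell with 13.6 and did not pass with 13.8, and ETV4 passed with neither. Of those of AACTGTC, SPRY1 fell with 13.8 and did not pass with 13.6, and ETV5 rose with 13.6 and fell with 13.8. ETV5 holds GATTAAC as well, and the holders of that word had medians above 0 with both. Of the members without any of the words, DUSP1 fell and ETV1 rose with both reagents, and SPRY2 passed with neither. DUSP4 and SPRY4 rose with 13.6 and fell with 13.8, and DUSP5 fell with 13.8 only. The members are listed by word here, which is no test of the words. The site of SPRY1 is the last 7 bases of its annotated transcript. A match is a description of the sequence, and its part in these changes was not tested.

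Other genes in or near the pathway were counted from 8 lists, 86 symbols in all, of which 79 were tested. The lists include repressors and degraders of members and cyclic AMP targets, so the pooled counts and medians do not measure activity of the pathway. With 13.6, 20 rose and 21 fell (median 0.015). With 13.8, 16 rose and 42 fell (median −0.23), and between the DsiRNAs 42 were higher and 19 lower with 13.6 (median 0.21). These lists are read beside the shares of all tested genes given above.

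Among 21 tested other ERK output genes, 5 rose and 3 fell with 13.6 (median 0.00), and 1 rose and 14 fell with 13.8 (median −0.36). Between the DsiRNAs 15 were higher and 3 lower with 13.6 (median 0.54). EPHA4, an ephrin receptor, rose by 0.89 ± 0.09 with 13.6 and fell by 0.85 ± 0.09 on the log2 scale with 13.8, and HBEGF, an EGF receptor ligand, rose by 0.79 ± 0.08 with 13.6 and fell by 0.23 ± 0.08 with 13.8. The immediate-early factors EGR1 and EGR2 fell by 1.14 ± 0.09 and 1.28 ± 0.07 with 13.8, and with 13.6 they stood at 0.00 ± 0.09 and −0.04 ± 0.06. MAFF, a small MAF factor, fell by 0.91 ± 0.07 with 13.6 and by 1.82 ± 0.07 with 13.8.

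Of 5 tested other MAP kinase phosphatases, 1 rose and 3 fell with 13.6, and 1 rose and 4 fell with 13.8. DUSP10, which acts on p38 and JNK, rose by 0.50 ± 0.07 with 13.6 and fell by 0.23 ± 0.07 with 13.8. DUSP7, a cytoplasmic relative of DUSP6, fell by 0.74 ± 0.09 with 13.6 and by 0.29 ± 0.09 with 13.8. DUSP9, of the same subfamily, fell by 1.05 ± 0.17 with 13.6 and rose by 0.76 ± 0.16 with 13.8. DUSP2 had too few reads to be tested. Among Sprouty relatives, SPRED1 fell by 0.25 ± 0.06 with 13.6 and rose by 0.23 ± 0.06 with 13.8, and SPRED2, which like SPRED1 brings neurofibromin to RAS, rose by 0.51 ± 0.07 with 13.6 and stood at 0.09 ± 0.07 with 13.8. SPRED3, a low transcript, fell by 0.72 ± 0.21 with 13.6 and rose by 0.65 ± 0.19 with 13.8, and the first call was lost without control replicate 1 (−0.59, adjusted p = 0.0503 by edgeR). SPRY3 had too few reads to be tested.

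Of 8 other ETS factors 3 rose and 2 fell with 13.6, and 1 rose and 5 fell with 13.8. GABPA, an ETS factor of many housekeeping promoters, rose by 0.42 ± 0.06 with 13.6 and fell by 0.62 ± 0.06 with 13.8, and ELK4, a partner of serum response factor, rose by 0.56 ± 0.08 with 13.6 and fell by 0.26 ± 0.08 with 13.8. The ETS repressor ETV3 fell by 0.81 ± 0.09 with 13.6 and by 0.90 ± 0.09 with 13.8. In the list of repressors and degraders of members, Capicua itself (CIC) stood at −0.08 ± 0.12 with 13.6 and −0.04 ± 0.12 with 13.8 (adjusted p = 0.602 and adjusted p = 0.811 by edgeR). Its partner ATXN1L, which stabilises Capicua in mice, fell by 0.49 ± 0.09 with 13.6 and by 1.64 ± 0.09 with 13.8. Its other partner, ATXN1, stood at 0.06 ± 0.08 with 13.6 and rose by 0.58 ± 0.08 with 13.8. DET1, part of a ubiquitin ligase that degrades PEA3 factors, fell by 0.50 ± 0.08 with 13.6 and rose by 0.38 ± 0.07 with 13.8. In that list 0 rose and 2 fell with 13.6 by edgeR, and 2 rose and 2 fell with 13.8, of 6 tested.

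In the cascade itself 5 genes rose and 4 fell of 20 with 13.6, and 4 rose and 8 fell with 13.8. NRAS fell by 0.74 ± 0.06 with 13.6 and by 1.28 ± 0.06 with 13.8. MAP2K1, which encodes MEK1, fell by 0.70 ± 0.07 with 13.6 and by 0.99 ± 0.07 with 13.8. Of 8 tested receptors and adaptors 3 rose and 1 fell with 13.6, and 4 rose and 2 fell with 13.8. ERBB3, a neuregulin receptor, rose by 0.34 ± 0.09 with 13.6 and 1.46 ± 0.09 with 13.8, and IGF1R fell by 0.50 ± 0.10 with each DsiRNA.

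Of 8 targets of cyclic AMP and CREB, the pathway that DUSP1 shares, 2 rose and 4 fell with 13.6, and 1 rose and 7 fell with 13.8. The orphan nuclear receptor NR4A1 stood at 0.12 ± 0.07 with 13.6 (adjusted p = 0.170 by edgeR) and fell by 1.41 ± 0.07 with 13.8, and NR4A3 fell with both (−0.49 ± 0.08 with 13.6 and −2.48 ± 0.08 with 13.8). CREM, a CREB relative, rose by 0.34 ± 0.06 with 13.6 and fell by 0.54 ± 0.06 with 13.8.

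For each member that changed by at least 1 on the log2 scale in a comparison, the 3 genes with the most similar profile over the 9 libraries were sought among 10693 genes averaging 5 CPM or more. Likeness is the root mean square difference of centred log2 CPM. SPRY1 was closest to LMNB1 (0.0888), AGGF1 (0.0944) and CNDP1 (0.104). SPRY4 was closest to CCP110 (0.0645), LEF1 (0.0665) and CPNE5 (0.0702), and ETV5 to GCNT2 (0.0502), PAN3 (0.0636) and ECE1 (0.0662). ETV1 was closest to CAMK2D (0.0882), MORF4L1 (0.11) and CRIP2 (0.113). CAMK2D, for example, had log2 fold changes of 1.33 with 13.6 and 1.69 with 13.8, beside 1.19 and 1.72 for ETV1. Such likeness follows from the choice, since these genes were picked for it over the same 9 libraries.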

How the data were processed

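The authors deposited raw counts: whole numbers of reads for each symbol in 9 libraries, not normalized. The submitters' processing notes name STAR, HTSeq, cutadapt, DESeq2 and FastQC, with hg19 as genome build. The sources used here give no tool versions, annotation or strand setting. The authors' normalized table was not used. Exact repeats, 16 of 25398 entries, were dropped.

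Tests used edgeR 4.0.16 (R 4.3.3). The filterByExpr filter (preset minimum of 10 reads) retained 14731 genes with 99.972% of reads. Libraries were scaled by TMM, and a robust quasi-likelihood model with 1 mean per group was fitted to all 9 libraries (6 residual degrees of freedom). P-values were adjusted by Benjamini-Hochberg over all tested genes. The fit was tested on simulated data. Replicates of a group differed by more than counting error (chi-square per degree of freedom 4.96 to 41.5). Whether they came from separate cultures beyond the label is not stated, so p-values measure the spread between these libraries. Promoters come from RefSeq, and exon lengths and 3′ untranslated regions from GENCODE 29 (the longest of each gene), both GRCh38 and matched by symbol. The members and lists were chosen with earlier results of these data known.

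Named are the 10 members, TBX3, up to 3 called genes with the smallest adjusted p per list and comparison, and the 3 most alike genes per member that changed by at least 1. A subset of those is printed, with further values given for the same genes in the other comparison, and CIC, DUSP2, SPRY3, SPRED2 with 13.8 and the marker genes were named beyond the rule. Some cascade genes that the rule names are not reported here. Alternatives were DESeq2 1.42.0, limma-voom (limma 3.58.1), other scalings and filters, fits on 2 groups, a replicate block and leaving out each library.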

Additional observations from a re-analysis of the deposited data

Results flagged for a closer look

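Of the 10 members, 8 are listed because their response differed between the DsiRNAs, by the test of 13.6 against 13.8. The log2 difference of 13.6 minus 13.8 was 0.83 for DUSP4, 0.48 for DUSP5, 1.64 for SPRY1, 1.11 for SPRY4 and 1.05 for ETV5, all higher with 13.6 in 3 of 3 libraries. It was −0.35 for DUSP1, −0.24 for DUSP6 and −0.53 for ETV1, all lower with 13.6 in 3 of 3 libraries. DUSP4, SPRY4 and ETV5 were above the controls with 13.6 and below them with 13.8. Between the DsiRNAs 61.1% of all tested genes differed by the same test.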

How the results depend on the processing

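Over 17 alternatives, the counts of members called stayed within 1.5 times the value reported in each comparison. So did the counts of all genes and of list genes. Single fold changes were followed for the members, TBX3 and, per comparison, the up to 3 called genes per list. None of those that passed the test, in the fit reported or in an alternative, changed sign. Marker genes, CIC, the most alike genes and list genes printed for a further comparison were not followed in this way. Among members that did not pass, the fold change crossed 0 over the alternatives for DUSP6 with 13.8 (−0.05 to 0.01), ETV4 with 13.8 (−0.015 to 0.067) and SPRY2 between the DsiRNAs (−0.04 to 0.05). Leaving out 1 library gave 6 to 6 members called with 13.6, 7 to 7 with 13.8 and 8 to 9 between the DsiRNAs. For list genes it gave 37 to 43, 53 to 58 and 53 to 62, and for all genes 6304 to 7504, 7164 to 8452 and 8021 to 9603. The member count between the DsiRNAs was 9 with library totals, with a mean of at least 50 reads, with only the 2 groups compared and with the replicate block, because ETV4 passed (−0.19, −0.18, −0.14 and −0.15). It also passed without control replicate 2 (−0.15), control replicate 3 (−0.14) or 13.6 replicate 2 (−0.19). With library totals ETV4 also passed with 13.6 (−0.17, adjusted p = 0.0455 by edgeR). FGFR3 between the DsiRNAs was lost without 13.8 replicate 2 (−0.80).

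The replicate numbers are shared across groups. Over 3 pairs per comparison, deviations of same-numbered libraries correlated at −0.0643 to 0.135, −0.179 to 0.166 and 0.0194 to 0.187. The 3 comparisons are in the order given above. Pairs of libraries with different numbers ran from −0.142 to 0.0758, −0.248 to 0.187 and −0.174 to 0.117, in the same order. Between the DsiRNAs all 3 same-numbered correlations were positive, the largest being 0.187. So few pairs cannot decide whether libraries with the same number share an effect of replicate. The replicate block called 8010, 8803 and 9581 genes, against 7357, 8169 and 8995 without it. Scaling by library totals moved the median of all genes to −0.05, 0.02 and −0.07. For DUSP5 with 13.6 the interval of −0.33 to 0.12 leaves a change within it undetected at this depth and spread.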
